A study of Mus musculus with 30 samples.

Results

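A set of 8 genes named for neurons, neural crest and Schwann cells was followed in the developing mouse pancreas, out of 15964 genes that the arrays measured under 1 gene symbol. They are Nefl, Nefm, Gap43, Stmn2, Ncam1, Slitrk5, Ret and Ednrb, and they were taken as every probe set on the 3 chips that the platform annotation ties to 1 of these symbols, which gave 20 of 36701 probe sets. Dorsal pancreatic buds of NMRI mice were collected at embryonic day 12.5 (e12.5), e13.5, e14.5, e15.5 and e16.5, with no genetic change or treatment named for any group, and the buds of a litter were pooled before extraction. The RNA of a stage went through 2 labelling reactions, each read on 3 Affymetrix chips (MG-U74 version 2: A, B and C), which made 30 arrays with 2 arrays per stage and chip. Values are log2 expression values, so a difference of 1 is a 2-fold difference in signal. Because the arrays of a stage share 1 pool, their spread is technical only, and stage and pool cannot be told apart. In whole buds, fewer cells of a type and less RNA per cell cannot be told apart either.

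The pancreatic bud receives its nerves from neural crest cells, which migrate into the gut tube and its outgrowths, divide, and become neurons, satellite glia and Schwann cells. Ednrb and Ret are receptors that these migrating cells need in the gut. Ednrb binds endothelins, and Ret is the receptor kinase for the GDNF family, working with a co-receptor of the Gfra family. As neurons extend axons they make the growth cone proteins Gap43 and Stmn2 and fill the axon with neurofilaments built from the subunits Nefl, Nefm and Nefh. Ncam1 and Slitrk5 are membrane proteins of cell contacts, and Ncam1 is also made by mesenchymal and endocrine cells.

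RefSeq promoter windows on GRCm38.p6 matched 2 of the 8 genes, Ednrb and Slitrk5. They are shown because no other of the 8 genes had such a window. Both genes lie on chromosome 14, as do Nefl and Nefm, which have no other protein-coding gene between them. The 250 bases before each start were searched on both strands for a Sox core (ACAAAG or ACAATG), an E-box (CANNTG), a homeodomain core (TAAT) and a GC box (GGGCGG). The stretches around the matches that were found, from chr14:103843711-103843734 (minus strand) for Ednrb and chr14:111675929-111675952 (plus strand) for Slitrk5, read as follows, with the match in capitals.
Ednrb, homeodomain core: agggctggggATTAaaactctgcg
Slitrk5, GC box: gcgccctccCCGCCCtgccggctc
The capitals give both matches as they stand on the gene's strand, which is the reverse complement of the letters searched. The homeodomain core occurred in 54.9% of 32851 such windows and the GC box in 32.7%. Neither gene's window held a Sox core, present in 25.2% of the windows, or an E-box, present in 66.2%. A match or its absence in these letters describes the window and not the binding of a factor.

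Over the 5 stages, the brightest probe set of 7 of the 8 genes fell and that of Ret rose. The test was a line over embryonic day fitted with limma to the 5 stage means, with p-values adjusted by the Benjamini-Hochberg method over all probe sets of the 3 chips and a threshold of 0.05. Of all 20 probe sets, 14 fell, 1 rose and 5 did not pass. The background was 13.1% of all probe sets falling and 10.6% rising. A fitted change of at least 2-fold was reached as well by 10 of the 20 probe sets, all falling, against 2.67% falling and 1.43% rising among all. The genes were picked with earlier results of these data known, so these counts describe them and do not test them as a group.

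**Figure D1:**
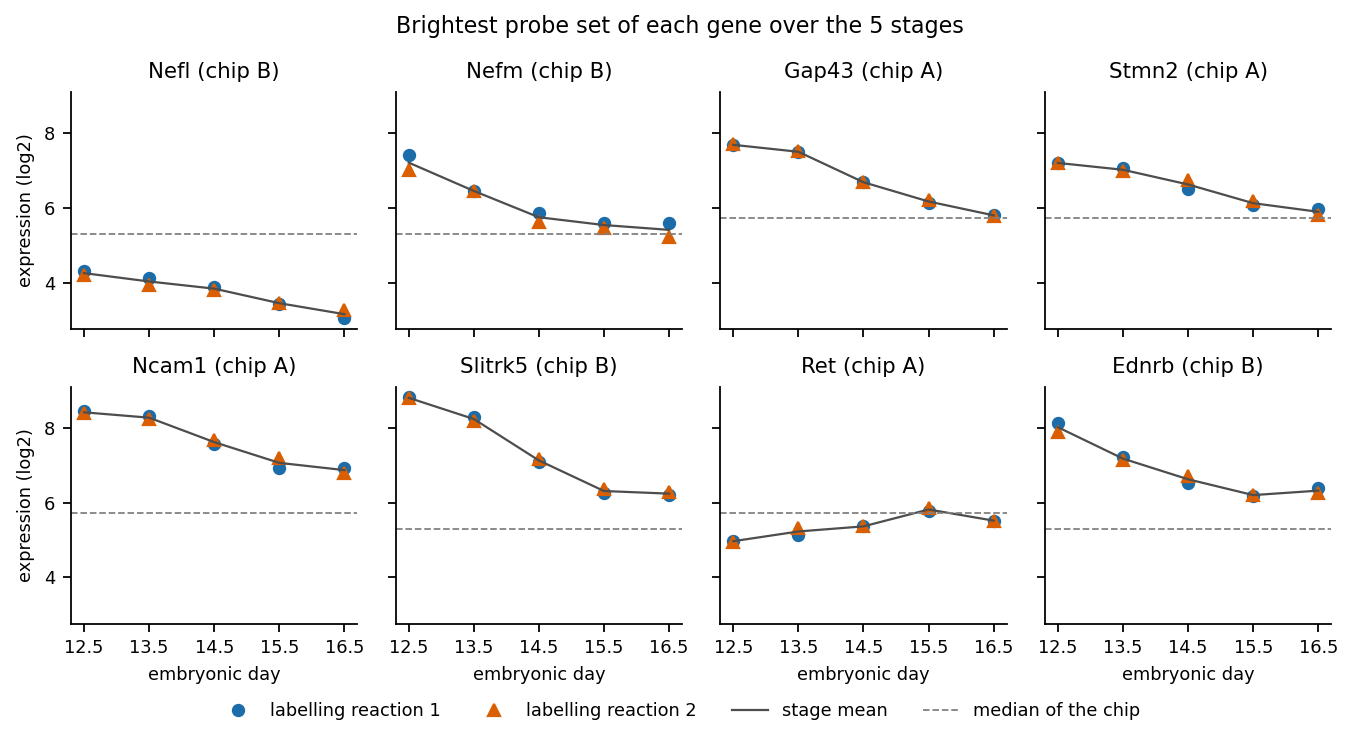
Log2 expression of the brightest probe set of each of the 8 genes (vertical axis) by embryonic day (horizontal axis). Circles and triangles are labelling reactions 1 and 2 of the same pool, the line joins stage means, and the dashed line is the median of all values of the chip. Nefl lies below that line at every stage, Ret lies above it at e15.5 only, and the other 6 genes stay above it while falling.

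Nefm, which encodes the medium neurofilament subunit, fell on 2 of its 3 probe sets. On chip B its brightest probe set read 7.41 and 7.02 at e12.5, 6.47 and 6.45 at e13.5, 5.87 and 5.63 at e14.5, 5.61 and 5.47 at e15.5, and 5.60 and 5.23 at e16.5. Only e15.5 and e16.5 overlapped, and both arrays of e12.5 lay above all later ones. The fitted change over 4 days was -1.81 ± 0.23 (log2 ± SE, n = 5 pools; limma adjusted p = 0.00181), a 3.5-fold fall. A second probe set, on chip A, fell by 1.59 ± 0.12, so 2 separately designed sets on different chips gave falls of like size. The third, on chip B, stayed between 4.27 and 4.64 on every array and did not pass (-0.01 ± 0.12). Even so, its arrays of e16.5 lay below those of e12.5. How often stages fail to overlap was not counted over all probe sets, so non-overlap here and below is description only.

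Nefl, the light subunit on which the other neurofilament proteins assemble, fell on 2 of its 3 probe sets and was dim on each. The brightest, on chip B, had 4.31 and 4.20 at e12.5, 4.12 and 3.94 at e13.5, 3.88 and 3.79 at e14.5, 3.44 and 3.46 at e15.5, and 3.05 and 3.25 at e16.5. No 2 stages overlapped, and the means went down at every step. Its fitted change was -1.11 ± 0.10 (limma adjusted p = 0.000579). The probe set lay below the median of its chip, 5.29, at all 5 stages. It stood at the 6.91th percentile of the chip at e16.5 and at the 31.3th at e12.5, and since no detection calls were given, its level is not shown to be above background and its change can be understated. On chip A, Nefl changed by -0.36 ± 0.10 with values between 3.23 and 3.70 (limma adjusted p = 0.0472), a call that 16 of 25 alternative settings lost. On chip C it did not pass (-0.09 ± 0.07).

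Whether the subunits fell by different amounts was not settled, because the answer turned on the pair of probe sets and the Nefl probe sets were dim, so that their change can be understated. The change over 4 days in the log2 difference of Nefm minus Nefl was -0.69 for the brightest pair, on chip B (exact two-sided permutation test over the 120 orders of the 5 pools, p = 0.2, with 0.0167 the smallest p they allow). It was -1.24 for the chip A pair (exact permutation p = 0.0167), and 1.10, the opposite sign, for the flat Nefm probe set of chip B against the same Nefl probe set (exact permutation p = 0.0167). Nefh, the gene of the heavy subunit, did not pass (limma adjusted p = 0.988) on a probe set below the chip median.

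Gap43, a membrane protein of growth cones, fell on its only probe set, on chip A. It read 7.68 and 7.70 at e12.5, 7.49 and 7.52 at e13.5, 6.69 and 6.69 at e14.5, 6.12 and 6.23 at e15.5, and 5.81 and 5.79 at e16.5. No array of a stage overlapped with an array of another stage. The fitted change was -2.04 ± 0.16 (limma adjusted p = 0.000734), a 4.12-fold fall, and brought the gene to the 51.4th percentile of the chip at e16.5, against the 82.9th at e12.5. By its design the probe set is not unique to 1 transcript, and it can hold signal from related ones.

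Stmn2, a stathmin that destabilises microtubules in growing neurites, gave different answers on its 3 probe sets, all on chip A. The brightest had 7.21 and 7.20 at e12.5, 7.06 and 6.98 at e13.5, 6.51 and 6.75 at e14.5, 6.07 and 6.19 at e15.5, and 5.98 and 5.81 at e16.5. No 2 stages overlapped, with e12.5 the highest and e16.5 the lowest. It fell by 1.41 ± 0.12 on the log2 scale (limma adjusted p = 0.000869), or 2.65-fold. By its design this brightest probe set, like that of Gap43, is not unique to 1 transcript. A second probe set below the chip median fell by 0.70 ± 0.17, a call that 5 of 25 alternative settings lost. The third, the dimmest, read 4.67 and 4.63 at e16.5 against 4.25 and 4.31 at e12.5, and its change of 0.35 ± 0.13 did not pass (adjusted p = 0.0879).

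**Figure D2:**
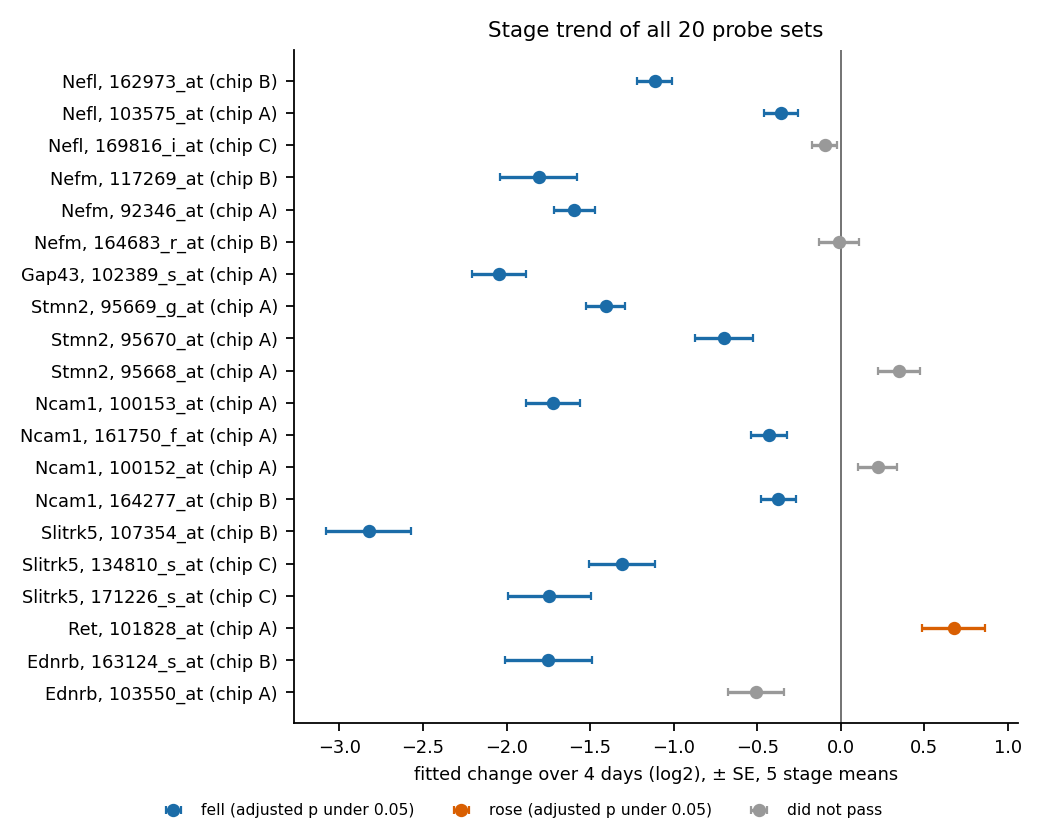
Fitted change in log2 expression over 4 days (horizontal axis) for each of the 20 probe sets (rows, with the chip in brackets), with bars of 1 SE from the line through 5 stage means. In every gene with several probe sets, the brightest one, drawn first, shows the largest fall, and the 5 grey points did not pass.

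Ncam1, the neural cell adhesion molecule, fell on 3 of its 4 probe sets, but by widely different amounts. The brightest, on chip A, read 8.45 and 8.40 at e12.5, 8.33 and 8.23 at e13.5, 7.58 and 7.67 at e14.5, 6.93 and 7.21 at e15.5, and 6.94 and 6.81 at e16.5. Its values at e12.5 and e13.5 lay above those of every later array, and the arrays of e15.5 and e16.5 overlapped. The fitted change was -1.72 ± 0.16 (limma adjusted p = 0.00128), a 3.3-fold fall. The others changed by -0.43 ± 0.11 (on a probe set not unique to 1 transcript), -0.37 ± 0.11 and 0.22 ± 0.12, the last without passing. Both small falls lost their call in 8 and 11 of 25 alternative settings, and the probe set with -0.37 lay between 2.69 and 3.16 on every array, below the median of chip B.

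Slitrk5, a leucine-rich repeat membrane protein that acts in neurite outgrowth and synapses, had the largest fall of the 8 genes and fell on each of its 3 probe sets. On chip B it had 8.82 and 8.80 at e12.5, 8.29 and 8.20 at e13.5, 7.09 and 7.18 at e14.5, 6.27 and 6.36 at e15.5, and 6.20 and 6.29 at e16.5. The arrays of e12.5, e13.5 and e14.5 did not overlap with each other or with later ones, while those of e15.5 and e16.5 overlapped. The fitted change was -2.83 ± 0.25 (limma adjusted p = 0.000501), 7.09-fold, and brought the gene to the 70.4th percentile of the chip at e16.5, against the 98.6th at e12.5. The 2 probe sets on chip C, by design not unique to 1 transcript, fell by 1.31 ± 0.20 and 1.74 ± 0.25. Its relative Slitrk1 did not pass (-0.09 ± 0.17), on a probe set below its chip's median.

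Ednrb fell on chip B, where it read 8.15 and 7.90 at e12.5, 7.22 and 7.14 at e13.5, 6.54 and 6.72 at e14.5, 6.19 and 6.22 at e15.5, and 6.40 and 6.25 at e16.5. No 2 stages overlapped, and the lowest was e15.5, not e16.5. The fitted change was -1.75 ± 0.26 (limma adjusted p = 0.00333), a 3.36-fold fall, on a probe set that, like that of Gap43, is not unique to 1 transcript. On chip A the gene lay between 3.04 and 3.88, below the median of the chip, and its change of -0.51 ± 0.17 did not pass (adjusted p = 0.071).

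Ret moved the other way. Its only probe set, on chip A, read 4.98 and 4.96 at e12.5, 5.13 and 5.33 at e13.5, 5.37 and 5.37 at e14.5, 5.78 and 5.87 at e15.5, and 5.52 and 5.52 at e16.5. Its highest arrays were those of e15.5, and those of e16.5 lay above those of the first 3 stages. The rise of 0.68 ± 0.19 over 4 days (limma adjusted p = 0.044), or 1.6-fold, held a drop of 0.30 ± 0.07 at the last step (e16.5 against e15.5, adjusted p = 0.0131). Its call was lost in 8 of 25 alternative settings, among them cyclic loess scaling (0.66, adjusted p = 0.0625) and leaving out the pool of e12.5 (0.53, adjusted p = 0.231), of e13.5 (0.69, adjusted p = 0.0974) or of e14.5 (0.68, adjusted p = 0.0629). The rise passed at 0.52 without the pool of e15.5 (adjusted p = 0.0326) and at 1.07 without that of e16.5 (adjusted p = 0.0112). Ret lay below the median of chip A, 5.74, at 4 of 5 stages. Markers of other cell types moved over the same days: of 16 acinar genes 16 rose, of 21 endocrine genes 6 rose, 3 fell and 12 did not pass, and of 20 mesenchyme genes 2 rose and 8 fell, while 11.9% of all genes rose and 17% fell. Their part in the value of Ret was not tested.

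Compared directly, e16.5 differed from e12.5 by at least 2-fold with an adjusted p under 0.05 (limma with stage as a factor over the 10 arrays of a chip) in 10 of the 20 probe sets, all lower at e16.5. The background was 3.03% of all probe sets lower and 1.44% higher. Slitrk5 changed by -2.57 ± 0.07, Gap43 by -1.89 ± 0.06, Nefm by -1.80 ± 0.13, Ednrb by -1.70 ± 0.09, Ncam1 by -1.55 ± 0.09, Stmn2 by -1.31 ± 0.09 and Nefl by -1.10 ± 0.08 on their brightest probe sets, with adjusted p-values up to 1.89e-07. These errors hold only the spread between labelling reactions and not that between pools. Ret was 0.55 ± 0.07 higher at e16.5, under the 2-fold minimum. Leaving out any single array left all 10 calls in place.

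The falls of the 7 genes were spread differently over the days in their values, and differences in timing between genes were not tested. Between consecutive stages, only Slitrk5 passed the 2-fold minimum, with a change of -1.11 ± 0.07 at e14.5 against e13.5 (limma adjusted p = 2.25e-07), a step at which 0.0245% of all probe sets fell. In either direction the 4 steps had 0.128%, 0.131%, 0.365% and 0.33% of all probe sets passing. Without the fold minimum, 5.64% of all probe sets were lower at e13.5 than at e12.5 and 12.2% at e16.5 than at e15.5. On the brightest probe sets at the first of these steps, Ednrb (-0.84 ± 0.09), Nefm (-0.76 ± 0.13) and Slitrk5 (-0.57 ± 0.07) were already lower. No other probe set of these genes passed at that step: Nefm had -0.27 ± 0.10 on chip A and -0.04 ± 0.08 on chip B, Ednrb -0.06 ± 0.11 on chip A, and Slitrk5 -0.03 ± 0.11 and -0.29 ± 0.10 on chip C (limma adjusted p-values of 0.113, 0.805, 0.821, 0.914 and 0.0887). Gap43 (-0.19 ± 0.06), Stmn2 (-0.18 ± 0.09), Ncam1 (-0.14 ± 0.09) and Nefl (-0.22 ± 0.08) did not pass at that step on their brightest probe sets (limma adjusted p-values of 0.072, 0.237, 0.402 and 0.109). At e16.5 against e15.5 Gap43 still changed by -0.37 ± 0.06 (adjusted p = 0.00118) and Nefl by -0.29 ± 0.08 (adjusted p = 0.0218). The other falling genes did not pass there on their brightest probe sets: Stmn2 (-0.23 ± 0.09, adjusted p = 0.0847), Ncam1 (-0.19 ± 0.09, adjusted p = 0.16), Nefm (-0.13 ± 0.13, adjusted p = 0.518), Slitrk5 (-0.07 ± 0.07, adjusted p = 0.528) and Ednrb (0.12 ± 0.09, adjusted p = 0.381).

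**Figure D3:**
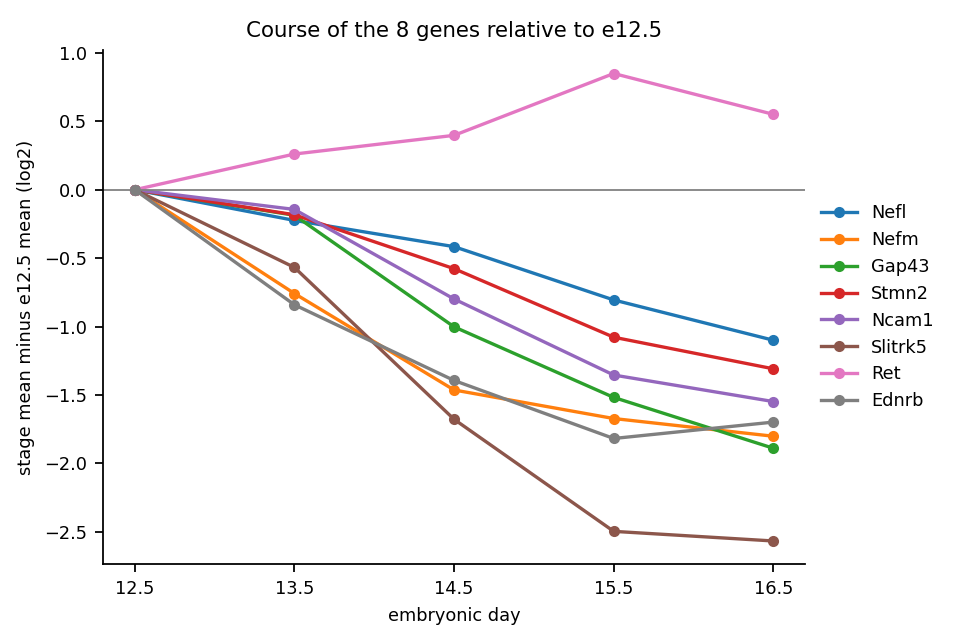
Stage mean minus the e12.5 mean in log2 units (vertical axis) by embryonic day (horizontal axis) for the brightest probe set of each gene, 1 line per gene. Ednrb and Nefm run downward at once, Nefm with smaller steps after e14.5 and Ednrb flat only after e15.5, Gap43, Ncam1 and Stmn2 stay near 0 at e13.5 and then drop, and Ret runs above 0.

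The share of the whole e12.5 to e16.5 fall that had occurred by e14.5 was 82.1% for Ednrb, 81.2% for Nefm, 65.4% for Slitrk5, 53.0% for Gap43, 51.6% for Ncam1, 44.1% for Stmn2 and 37.8% for Nefl. The difference between the later change (e16.5 minus e14.5) and the earlier one (e14.5 minus e12.5) passed the 2-fold minimum for Nefm (1.13 ± 0.22, limma adjusted p = 0.00334) and Ednrb (1.09 ± 0.16, adjusted p = 0.000313). The positive sign means that the fall was larger in the first 2 days, and 0.657% of all probe sets had such a positive difference. Neither call held without the first array of e12.5, where the differences were 0.93 for Nefm and 0.97 for Ednrb, both under 2-fold. Nefm also lost its call without the second array of e14.5 (0.88) or the first of e16.5 (0.94), and Ednrb without the first array of e14.5 (0.90). On its chip A probe set Nefm had 55.4% of its fall by e14.5, a smaller share than on chip B. No other probe set of Nefm (0.16 ± 0.17 and 0.01 ± 0.13) or Ednrb (0.38 ± 0.18) passed (limma adjusted p-values of 0.618, 0.972 and 0.227). Slitrk5 had positive differences on each probe set, all under the 2-fold minimum. They were 0.79 ± 0.12 on chip B, and 0.66 ± 0.20 and 0.63 ± 0.17 on chip C (limma adjusted p-values of 0.000614, 0.0464 and 0.032).

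Across the 5 stage means, the brightest probe sets of the 7 falling genes correlated with each other at Pearson's r of 0.887 to 0.997, and with Ret at -0.935 to -0.827. These are descriptions over 5 points from the same pools. The probe sets on the same chip whose centred stage means lay nearest to those of each gene (root mean square distance over the 5 stages, in log2 units) were the following. For Ncam1 they were the homeobox gene Hoxa5 (0.030), the lysophosphatidic acid receptor gene Lpar1 (0.046) and the laminin gene Lama1 (0.049). For Slitrk5 they were Rdh10, an enzyme of retinoic acid synthesis (0.12), Pdzrn3 and Tril (0.18 each). Stmn2 had the receptor phosphatase gene Ptprd (0.033), the chromatin gene Smarcad1 (0.038) and Dbn1, which encodes the actin-binding protein drebrin (0.042). Gap43 had D430019H16Rik, the transcription factor gene Mycn and Ncam1 itself (all 0.12). Nefm and Ednrb were each among the 3 nearest of the other, at 0.093. The zinc finger gene Zfp521 (0.061) and the matrix gene Emilin1 (0.091) completed the 3 of Nefm, and B3gnt5 (0.069) and Pgm5 (0.092) those of Ednrb. Nefl lay nearest to Fras1 (0.032), Arid5b (0.040) and Fmnl2 (0.041), and Ret to Rcan3 (0.044), Mrps28 (0.053) and Cyb5b (0.056).

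Other genes of neurons, neural crest and glia were counted from lists of such genes, with 1 brightest probe set per gene. Of 108 measured genes on 6 neural lists, the 8 genes left out, 23 fell, 6 rose and 79 did not pass, with a median change of 0.01 in log2 units. Among all 15964 genes, 17% fell and 11.9% rose, with a median of 0.02, so the neural lists held 21.3% falling and 5.56% rising genes against that background. The lists were written with earlier results known, and several of their genes also serve other cells.

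Among 22 genes of neuron structure and growth, 5 fell, none rose and 17 did not pass, with a median change of -0.09. Of those that did not pass, Mapt had 3 of its 6 probe sets rising, Vsnl1 1 of 3 rising and Nsg1 1 of 2 falling. Falls were seen for Dcx, a microtubule protein of migrating neurons (-0.93 ± 0.21), and the growth cone gene Basp1 (-0.65 ± 0.09, with 1 of its 4 probe sets rising). The ubiquitin hydrolase gene Uchl1 (-0.56 ± 0.13) and Rtn1 (-0.55 ± 0.11, on 1 of its 3 probe sets) fell as well. The pan-neuronal tubulin gene Tubb3 stood at 8.60 at e16.5 and 8.89 at e12.5 with a fitted change of -0.25 ± 0.15 that did not pass (limma adjusted p = 0.276), and Elavl3, an RNA-binding protein of neurons, had 0.13 ± 0.10 (adjusted p = 0.37). The remaining fall was that of Elavl4, a relative of Elavl3 (-0.52 ± 0.14, below the chip median and on 1 of its 3 probe sets). Prph, the peripherin of peripheral neurons (0.10 ± 0.10), and the synaptic gene Snap25 (-0.29 ± 0.09, adjusted p = 0.0562) lay below the median of their chip and did not pass.

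Among 14 neural crest and enteric progenitor genes, 5 fell and 1 rose. The falls were those of the transcription factor genes Hand2 (-2.72 ± 0.12) and Snai2 (-1.99 ± 0.19), which mesenchyme also expresses, of Sox8 (-0.81 ± 0.07) and Tbx3 (-0.71 ± 0.11), and of the neurotrophin receptor gene Ngfr (-0.62 ± 0.11). The rise was that of the crest factor gene Pax3 (0.36 ± 0.10), below the chip median. Sox10, the defining factor of crest-derived glia, was bright on chip B at 8.06 at e16.5 and 7.78 at e12.5, and its change of 0.24 ± 0.12 did not pass (limma adjusted p = 0.178). Erbb3, the neuregulin receptor gene of Schwann cell precursors, had -0.31 ± 0.23 (adjusted p = 0.373), and Phox2a and Foxd3 lay below the chip median with changes of 0.03 ± 0.10 and -0.03 ± 0.09. Among the neuron and glia genes bright at e12.5, some thus fell on their brightest probe sets (Dcx, Basp1, Uchl1, Rtn1, Ngfr and Fabp7 among them). Others did not pass (Tubb3, Elavl3, Sox10 and Erbb3 among them), and differences in slope between all these and the 8 genes were not tested. By their design, the brightest probe sets of Tubb3, Sox10, Rtn1 and Prph are, like that of Gap43, not unique to 1 transcript.

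Of 15 Schwann cell and glial genes 3 fell and none rose. The falls were those of Fabp7, a fatty acid binding protein of glial precursors (-1.03 ± 0.12, on 1 of its 3 probe sets), of Ngfr and of Gas7 (-0.49 ± 0.08, on 1 of its 6 probe sets). The myelin gene Mbp (0.42 ± 0.14, limma adjusted p = 0.0689) and S100b, a calcium-binding protein of glia (0.26 ± 0.10, adjusted p = 0.106), did not pass on their brightest probe sets, though 1 other probe set of each rose. Of 14 genes for transmitters of autonomic and enteric neurons, none fell and 2 rose. They were Npy, which encodes neuropeptide Y (1.49 ± 0.24), and the decarboxylase gene Ddc (1.25 ± 0.30, on 1 of its 2 probe sets), both also known in endocrine cells.

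Among 19 genes of GDNF and endothelin signalling other than Ret and Ednrb, 3 fell and 1 rose. The co-receptor gene Gfra1 rose by 0.54 ± 0.10 (limma adjusted p = 0.00809) on 1 of its 4 probe sets. Gfra2, Gfra3 and Gfra4 had changes of 0.11 ± 0.09, -0.03 ± 0.13 and 0.03 ± 0.10 and did not pass. Of the ligands, Gdnf (-0.52 ± 0.17, adjusted p = 0.0745), Nrtn (0.27 ± 0.13), Artn (0.16 ± 0.10), Edn1 (0.10 ± 0.13), Edn2 (-0.01 ± 0.14) and Edn3 (-0.20 ± 0.09) did not pass, nor did Ece1 (0.15 ± 0.13), the enzyme that activates endothelins. The falls were those of Spry1 (-1.03 ± 0.14), Spry2 (-0.63 ± 0.11) and Dusp6 (-0.57 ± 0.15, on 1 of its 3 probe sets), inhibitors that receptor kinase signalling induces. Their relative Spry4 (0.06 ± 0.09) did not pass, nor did Etv4 (0.003 ± 0.10) and Etv5 (0.24 ± 0.13) of the same list. Whether receptor kinase signalling changed was not tested.

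Among 27 other genes of neural adhesion and axon guidance, 8 fell and 2 rose. The guidance ligand gene Slit3 fell by 2.27 ± 0.18, on a probe set that by its design is not unique to 1 transcript. The collapsin response gene Dpysl2 fell by 1.69 ± 0.13 (on 1 of its 2 probe sets). The netrin receptor gene Unc5c fell by 1.49 ± 0.17 and the semaphorin receptor gene Nrp2 by 1.43 ± 0.17. The rises were those of the netrin gene Ntn1 (1.10 ± 0.18, on 1 of its 2 probe sets) and the contactin gene Cntn2 (0.65 ± 0.13, on 2 of its 3 probe sets). L1cam, an adhesion molecule of axons, did not pass (-0.10 ± 0.11). Many of these guidance genes are also made by mesenchyme and vessels.

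**Figure D4:**
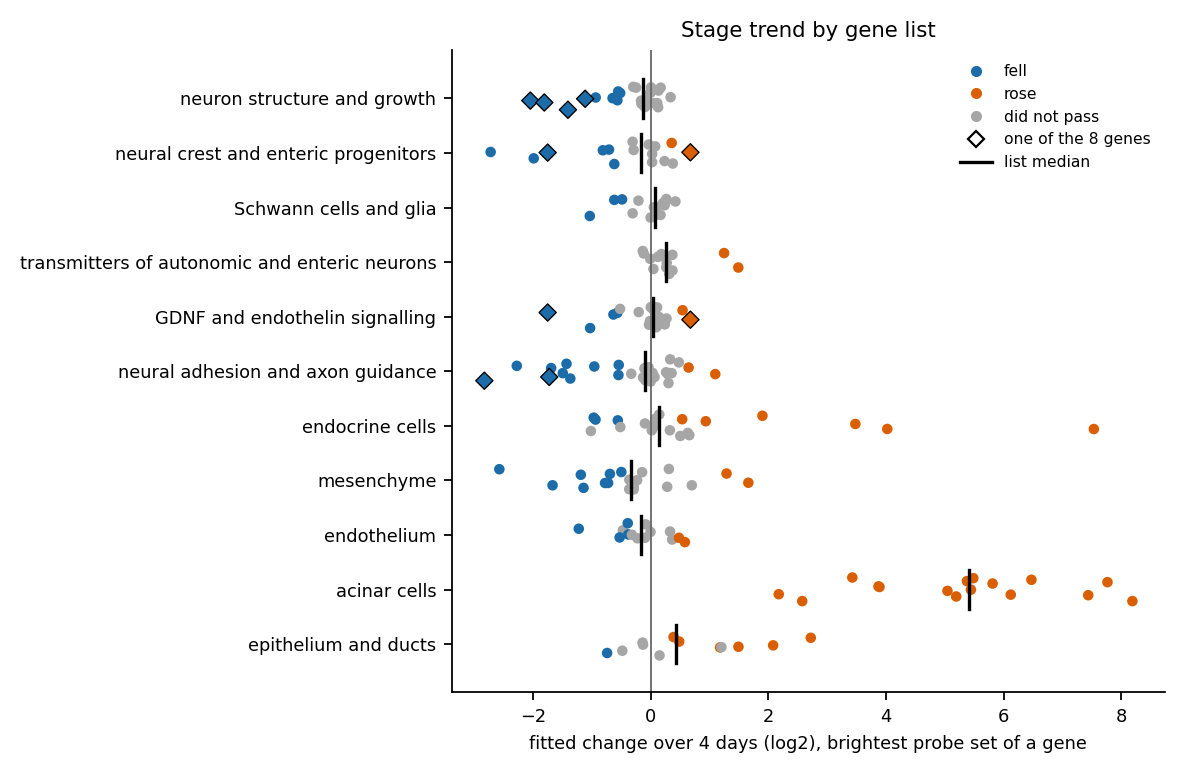
Fitted change in log2 expression over 4 days (horizontal axis) of every measured gene of 11 lists (rows), 1 brightest probe set per gene. Diamonds are the 8 genes, blue points fell, orange points rose, grey points did not pass, and black bars are list medians with the 8 genes included. Most points of the 6 neural lists, at the top, lie near 0, while the diamonds of 7 of the 8 genes lie at -1.11 or lower.

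Markers of the other cell types of the bud moved over the same days. Of 20 mesenchyme genes 8 fell and 2 rose, with a median change of -0.34. Among them were Tcf21 (-2.57 ± 0.22), Pdgfra (-1.67 ± 0.22, on 1 of its 3 probe sets), Postn (1.66 ± 0.15) and Dcn (1.29 ± 0.19). Of 14 endothelial genes 4 fell and 2 rose, with a median of -0.16. All 16 acinar genes rose, with a median of 5.41, and of 12 epithelial and duct genes 6 rose and 1 fell, with a median of 0.44. Of 21 endocrine genes 6 rose and 3 fell, with a median of 0.15. Among the falls was Isl1 (-0.94 ± 0.15, on 1 of its 2 probe sets). It is a factor gene of endocrine cells and neurons and was picked with its value known. At e16.5 relative to e12.5, the mean level of the mesenchyme genes changed by -0.29 in log2 units, that of the endothelial genes by -0.09, that of the acinar genes by 5.22, that of the epithelial genes by 0.65, that of the endocrine genes by 0.82 and that of the 108 neural list genes by -0.11. The part of these shifts in the falls of the 7 genes was not tested.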

How the data were processed

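Each of the 30 arrays has 1 log2 expression value per probe set, deposited by the authors. Per the submitters' processing notes, the authors used RMA, with the software version not given in the sources used here and the log base inferred from the range of the values. RMA corrects background, quantile-normalizes arrays and summarises probes, so a change in total RNA would not show. Each chip forms its own table, and levels were compared within a chip, except in picking a gene's brightest probe set by its mean over 10 arrays. No detection calls were given. The medians of single arrays were 5.71 to 5.76 for chip A, 5.26 to 5.31 for chip B and 3.99 to 4.02 for chip C. Reactions of a pool correlated at 0.996 to 0.998. Precision is limited by the number of arrays, and with 1 pool per stage the spread between pools of a stage was not measured.

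Gene names came from the platform annotation in GEO, checked through Entrez identifiers against RefSeq (29131 probe sets with 1 symbol, 724 with several, 6846 unnamed here). Tests used limma 3.58.1 in R 4.3.3. The stage trend was a line over embryonic day through the 5 stage means of a chip, given as slope times 4 days. Contrasts used stage as a factor over 10 arrays and a minimum of 2-fold. Adjustment ran over 36701 probe sets, with a threshold of 0.05. The functions were tested on simulated data. The genes, lists and tests were chosen with earlier results of these data known. The text names all probe sets of the 8 genes, up to 4 genes of each list with the largest passing change, the 3 nearest profiles of each gene and the fixed markers of neurons, crest and Schwann cells; of the lists of other cell types, only mesenchyme genes are named by this rule. Further list genes were named after their values were seen: Nefh, Mapt, Vsnl1, Nsg1, Slitrk1, L1cam, Pax3, Ntn1, Cntn2, Isl1, Ece1, Spry4, Etv4 and Etv5. So were the ligands and co-receptors of Ret and Ednrb. Lists were described by counts and medians. Alternatives were other scalings, a filter on dim probe sets, a prior variance that follows intensity, adjustment by chip, other models of the labelling reactions, other fold minimums, and leaving out arrays or pools.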

Additional observations from a re-analysis of the deposited data

How the results depend on the processing

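The falls of the 7 genes on their brightest probe sets kept their direction and call in the stage trend under every alternative run for them, and so did their differences between e16.5 and e12.5. The filter to bright probe sets kept 6 of the 20, and all 6 fell both in the stage trend and at e16.5 against e12.5; the Nefl and Ret probe sets were not among them. The rising count of the stage trend, 1 (Ret), was 0 with that filter, with cyclic loess, with a 2-fold minimum and without the e12.5, e13.5 or e14.5 pool. As shares of all 36701 probe sets, 1.43% to 9.98% rose in those settings. With the filter 2145 rose, a share of 5.84% that also counts the dim probe sets left untested. Of the probe sets tested with the filter, the share that rose is larger. The count was 2 with the pool as a random block over 10 arrays, where the dim Stmn2 probe set passed too. With that random block, 14.8% of all probe sets rose. Leaving out arrays gave 11 to 15 falling and 0 to 1 rising probe sets in the stage trend. It gave 1 to 2 falling at e14.5 against e13.5, and 0 to 2 with a larger earlier fall. Among all probe sets, 10.8% to 13.6% fell and 7.72% to 11% rose in the stage trend without single arrays or 1 replicate number. Without single arrays, 0.0245% to 0.03% of all fell at e14.5 against e13.5, and 0.638% to 0.703% had a positive difference. With no fold minimum, 3 of the 20 probe sets were higher at e16.5 than at e12.5 (1 by brightest probe set), against 26.4% of all probe sets, and 5 had a larger earlier fall, against 4.91% of all with a positive difference; with 1.5-fold, 5 did, against 2.52%. By step with no fold minimum, 3 were lower at e13.5 against e12.5 (5.64% of all), 10 at e14.5 against e13.5 (6 by brightest; 1.81% of all), 9 at e15.5 against e14.5 (6 by brightest; 5.74% of all) and 4 at e16.5 against e15.5 (3 by brightest; 12.2% of all). Then 1 was higher at e13.5 against e12.5 (5.59% of all), at e15.5 against e14.5 (4.94%) and at e16.5 against e15.5 (8.31%). With 1.5-fold the lower counts were 2 (0.526% of all), 6 (4 by brightest; 0.245%), 2 (1 by brightest; 0.657%) and 0 (1.68%). The Nefm minus Nefl change ranged from -0.87 to -0.52 without replicate 1 or 2. It was -1.24 on the chip A pair and 1.10 with the flat Nefm probe set of chip B (exact permutation p = 0.0167 for each). That flat probe set's own change ranged from -0.057 to 0.036 without single arrays. It was 0.0076 and 0.15 without the pools of e12.5 and e16.5. Without those of e13.5, e14.5 and e15.5 it was -0.029, -0.010 and -0.095. Repeated quantile normalization gave -0.10 and cyclic loess -0.13. The cause was not tested.

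The reaction numbers are shared by all stages but do not pair the samples: the correlation of reaction differences between stages ran from -0.18 to 0.11. With the replicate block, which takes the 10 arrays as separate points of the line, 15 of the 20 probe sets fell and 2 rose in the stage trend. Among all probe sets, 19.9% fell and 20.7% rose with that block. At e16.5 against e12.5, 10 of the 20 were lower with it, against 3.03% of all. Without replicate 1 or 2 the contrasts have no residual spread and were not run. No level could be set against background.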
